A study of Mus musculus with 4 samples.

Results

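The genes described here are the 34 genes of rod and cone phototransduction, chosen by name: 23 that rods use or that rods and cones share, and 11 of cones. All 34 were found by symbol among the 55357 genes of the files, and the rule used no measured value, although the list was drawn up with earlier results of these data known. The libraries were 10x Chromium 3′ single-cell RNA libraries of mouse retina, 2 labelled Ctrl and 2 labelled Diabetic, made from live cells enriched on beads that bind CD31, the endothelial surface protein encoded by Pecam1. The labels give the state Ctrl or Diabetic and nothing on strain, age, diabetes model or its duration, and nothing on the animals behind each library. The p-values therefore measure the spread between these libraries, which may be technical. The labelled cell type is CD31+ cell, yet in each library rods outnumbered endothelial cells, and Pecam1 lay at 7.50 to 12.2 CPM in rods against 662 to 714 CPM in endothelial cells. Levels are in CPM, the unique molecular identifiers (UMIs, counted RNA molecules) of a gene scaled to the UMI total of the same cells in the same library.

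Phototransduction turns light into an electrical signal in the outer segment, the stack of membrane discs at the tip of a rod or cone. A visual pigment activates the G protein transducin, transducin lifts the inhibitory subunits off a phosphodiesterase, the enzyme lowers cyclic GMP, and the cyclic nucleotide-gated channels in the plasma membrane close. A kinase and an arrestin then silence the pigment, a complex of RGS9 speeds the return of transducin to its resting state, and guanylate cyclases restore cyclic GMP under the control of calcium-binding activator proteins. Rods and cones run the same steps, mostly with different genes for each subunit. CRX drives these genes in all photoreceptors, and NRL drives the rod genes.

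For 24 of the 34 members the 250 bases before the RefSeq start (build GRCm38.p6) were at hand. The core CRX motif, TAATCC on either strand, was in 10 of their 26 windows (38.5%, against 6.25% of 32851 windows of this length over all genes), and TGCTGA, part of the element that NRL binds, was in 4 of 26 (15.4%, against 16.1%). Windows are printed for Pdc and for Sag, Grk1 and Arr3, 3 of the genes lower in Diabetic in both rods and cones. Pdc was lower in neither. The windows run from 5′ to 3′ with matches to these 2 motifs in capitals. A match is a run of letters and not evidence of binding. Sag lies at chr1:87803680-87845158 on the + strand and its window at chr1:87803430-87803679. The Grk1 window is chr8:13404831-13405080, that of Arr3 chrX:100605247-100605496 and that of Pdc chr1:150319167-150319416, all on the + strand and directly before the annotated gene. Of the windows printed, only that of Sag held a match to either motif. Gngt1 and Abca4 were also lower in both classes, and their windows, not printed, each held 1 CRX match and 0 NRL matches.
Sag: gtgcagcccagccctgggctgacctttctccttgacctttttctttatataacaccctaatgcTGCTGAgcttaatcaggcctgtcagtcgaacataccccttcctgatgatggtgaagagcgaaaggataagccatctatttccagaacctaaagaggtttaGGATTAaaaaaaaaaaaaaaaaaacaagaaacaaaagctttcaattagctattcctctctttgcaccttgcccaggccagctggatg
Grk1: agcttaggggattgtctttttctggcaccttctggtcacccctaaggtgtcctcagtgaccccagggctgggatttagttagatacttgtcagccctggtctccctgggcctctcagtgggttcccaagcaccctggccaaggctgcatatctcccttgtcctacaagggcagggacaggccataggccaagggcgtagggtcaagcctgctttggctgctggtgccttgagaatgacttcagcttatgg
Arr3: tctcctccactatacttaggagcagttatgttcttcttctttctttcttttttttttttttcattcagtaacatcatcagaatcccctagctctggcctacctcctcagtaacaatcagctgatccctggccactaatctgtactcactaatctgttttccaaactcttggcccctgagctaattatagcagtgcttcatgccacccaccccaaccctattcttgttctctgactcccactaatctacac
Pdc: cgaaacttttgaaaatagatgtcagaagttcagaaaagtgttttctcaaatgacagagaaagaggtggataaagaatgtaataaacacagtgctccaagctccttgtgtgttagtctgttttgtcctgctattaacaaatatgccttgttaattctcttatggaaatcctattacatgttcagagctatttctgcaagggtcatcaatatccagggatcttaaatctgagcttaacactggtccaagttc

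After filtering, 5568 and 2378 cells of Ctrl 1 and Ctrl 2 and 7387 and 3408 cells of Diabetic 1 and Diabetic 2 were kept, out of libraries of 29792902 to 58792636 UMIs, and any 2 libraries shared 3 to 9 cell barcodes. Cells were clustered without the 34 members, and clusters were called rod-like, cone-like and so on (rods and cones from here on) from markers that are not members. Rods were 2304 and 946 cells in Ctrl 1 and 2 and 2432 and 1099 in Diabetic 1 and 2, with Nrl, the transcription factor of rods, at 1967 and 2015 CPM in Ctrl and 2071 and 1980.3 CPM in Diabetic. Cones were 211, 83, 251 and 110 cells in the same order. Their top 10 genes held the cone markers Ccdc136 and Kcne2 but also Rpgrip1 and Neurod1, which were among the top 10 of a rod-led cluster too, and Nrl still lay at 1674 to 1822 CPM in them. On a marker score, the mean level of a list relative to the cluster where each marker is highest, the cone cluster had 0.792 for the cone list and 0.777 for the rod list. Clusters led by rod markers that also carried leading genes of another class, or cone markers, stayed unnamed and held 22.3% and 23.0% of the cells of Ctrl 1 and 2 and 20.1% and 20.6% of those of Diabetic 1 and 2. One of them, with rod and cone markers and high depth, held 7.92% of Ctrl 1 but 1.72%, 3.68% and 3.52% of Ctrl 2, Diabetic 1 and Diabetic 2.

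Over all members together, phototransduction RNA made up a smaller part of the RNA of rods in both Diabetic libraries. The members gave 7.64% and 8.02% of rod UMIs in Ctrl 1 and 2 and 7.11% and 6.92% in Diabetic 1 and 2, a difference of -0.816 percentage points between means of 7.83% ± 0.27 and 7.02% ± 0.13 (SD, n = 2 each). In cones the shares were 7.76% and 8.11% in Ctrl and 7.39% and 7.37% in Diabetic. The groups did not overlap in either class. An exact permutation test of 2 against 2 libraries cannot go below p = 0.333, the value both classes reached. The share was lower in both Diabetic than in both Ctrl libraries in each of the 4 rod clusters taken alone, from 7.45% and 7.51% to 6.36% and 6.11% in the shallowest cluster and from 6.63% and 6.99% to 6.54% and 6.38% in the one that differed least. With each cell thinned to 1000 UMIs the shares in rods were 7.31% and 7.53% in Ctrl and 6.65% and 6.51% in Diabetic.

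**Figure D1:**
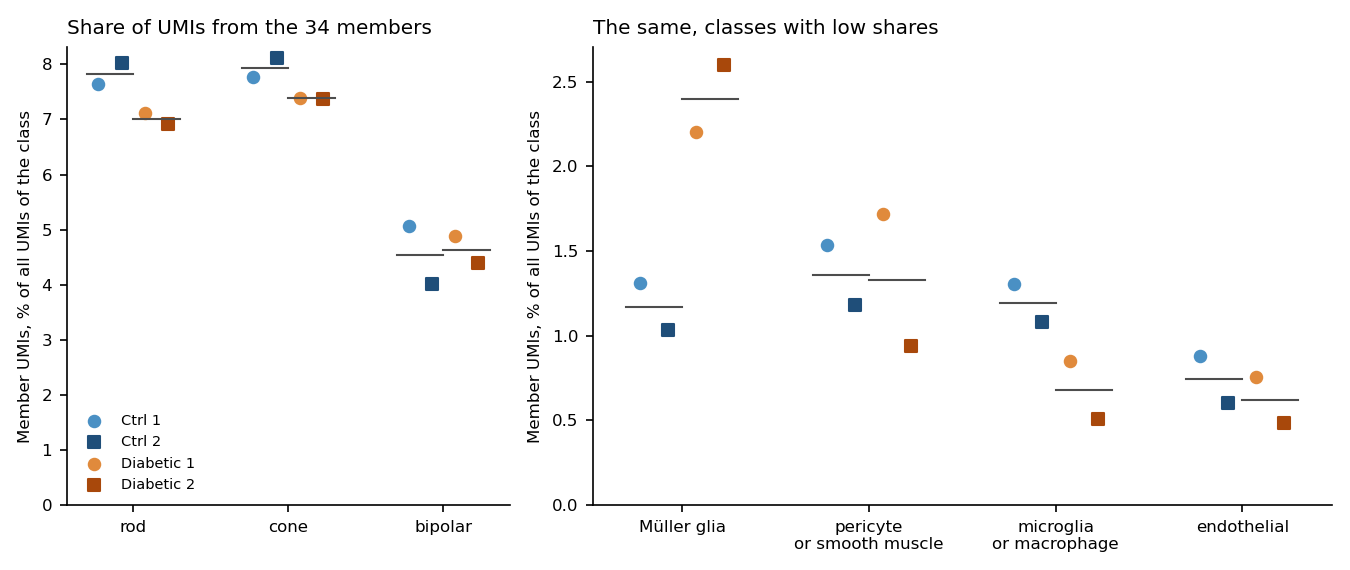
Points give the percentage of all UMIs of a cell class that came from the 34 members in each of the 4 libraries, with lines at the mean of each group; the right panel has its own scale. In rods the Diabetic libraries (7.11% and 6.92%) lie below the Ctrl libraries (7.64% and 8.02%), and in Müller glia they lie above.

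Gene by gene in rods, 17 of the 34 members were lower in Diabetic and 0 higher (edgeR quasi-likelihood test, adjusted p under 0.05 over 15202 genes). Of all genes tested in rods 6.92% were lower and 8.5% higher. The median log2 fold change was -0.38 over the members and 0.00 over all genes. Of the 17, 9 were among the 23 rod and shared members (median log2 fold change -0.22) and 8 among the 11 cone members (median -0.75). In 25 members both Diabetic libraries lay below both Ctrl libraries (18.3% of all genes) and in 2 above (42% of all genes). No member was higher at an unadjusted p under 0.05 in edgeR, and DESeq2 and limma also called 0 higher. DESeq2 called 17 lower, 13 rod and shared members and 4 cone members, where 576 genes were lower and 523 higher. Limma called 18 lower, 8 and 10 in the same order, where 1022 genes were lower and 1279 higher. Scaled to library totals instead of TMM factors (which shifts the median gene by 0.09 on the log2 scale), 14 members were lower and 1, Pdc, was higher, and over all genes 2080 were higher and 486 lower in place of 1292 and 1052. With a clustering that used the members, 9 rod and shared members and 1 cone member were called, and with all rod-led clusters pooled 9 and 2.

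Other measures moved with the groups in rods. The median share of mitochondrial UMIs was 3.12% and 2.72% in Ctrl and 1.74% and 2.18% in Diabetic. The 8 endothelial markers, all detected in each library, summed to 128 and 83.3 CPM in Ctrl rods and 232 and 169.5 CPM in Diabetic rods, and the 8 Müller glia markers to 674 and 573 against 836 and 791 CPM. Of the 6 neutrophil markers, 2 were detected in every library. Together the 6 summed to 1.23 and 2.01 CPM in Ctrl rods and 39.1 and 19.8 CPM in Diabetic rods. The part of these in the changes of the members was not tested. Limited to cells with at most 10% mitochondrial UMIs, 18 members were lower in rods. This limit did not remove the difference in mitochondrial share. The medians of these cells were 2.97% and 2.61% in Ctrl and 1.72% and 2.14% in Diabetic.

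**Figure D2:**
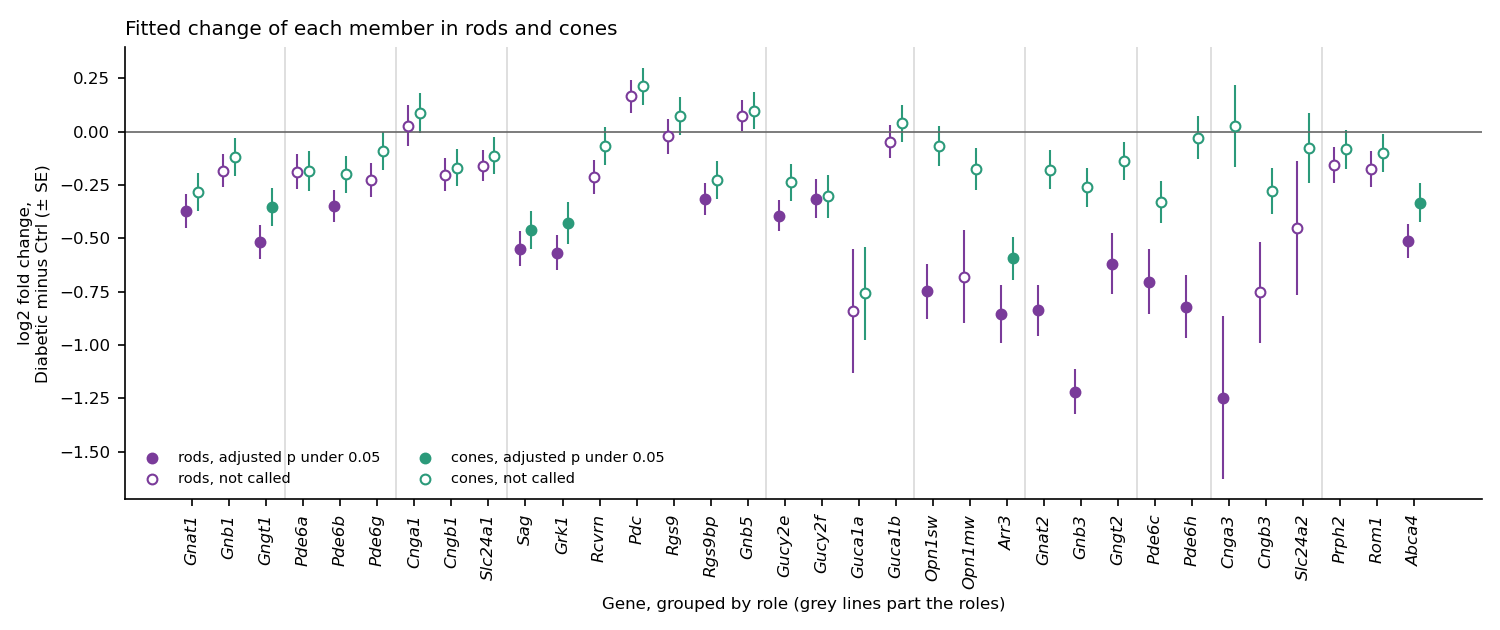
The fitted log2 fold change (Diabetic minus Ctrl, bars ± SE, 2 libraries per group) of each member is drawn for rods and cones, filled where the edgeR adjusted p is under 0.05. Most points lie below 0, Pdc, Gnb5 and Cnga1 lie above it in both classes, and the cone genes lie lower in rods than in cones.

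Among the 3 subunits of rod transducin, Gngt1 and Gnat1 were lower and Gnb1 did not pass the test. Gngt1 (chr6:3993792-3997436, + strand), the gamma subunit, stood at 10374 and 11145 CPM in Ctrl rods and 7972 and 8063 CPM in Diabetic rods, a log2 fold change of -0.52 ± 0.08 (SE; edgeR adjusted p = 0.00238). Gnat1 (chr9:107674474-107679712, - strand), the alpha subunit that binds GTP, went from 7941 and 8409 to 6876 and 6595 CPM (-0.37 ± 0.08, adjusted p = 0.0111). Gnb1, the beta subunit, which many cell types make, was 6469 and 6761 CPM in Ctrl and 6239 and 6197 CPM in Diabetic (-0.18 ± 0.08, adjusted p = 0.129). None of the 3 genes overlapped between the groups.

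Of the rod phosphodiesterase genes, only the catalytic Pde6b passed the test. It lay at 2638 and 2716 CPM in Ctrl and 2266 and 2219 CPM in Diabetic (-0.35 ± 0.07, edgeR adjusted p = 0.0109). Its catalytic partner Pde6a went from 2235 and 2486 to 2167 and 2254 CPM, with overlapping groups and a log2 fold change of -0.19 ± 0.08 (adjusted p = 0.133). The inhibitory subunit Pde6g had 5443 and 5604 CPM in Ctrl and 5269 and 4798 CPM in Diabetic (-0.23 ± 0.08, adjusted p = 0.0797).

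The genes of the rod channel and of the exchanger that carries calcium out of the outer segment did not pass. Cnga1, the channel's alpha subunit, lay at 2666 and 2309 CPM in Ctrl and 2912 and 2497 CPM in Diabetic, with overlapping groups (0.03 ± 0.10, edgeR adjusted p = 0.867). Its beta subunit Cngb1 was 1249 and 1354 CPM against 1215 and 1200 CPM (-0.20 ± 0.08, adjusted p = 0.0927). The exchanger Slc24a1 was 2186 and 2145 CPM in Ctrl and 2082 and 2055 CPM in Diabetic (-0.16 ± 0.07, adjusted p = 0.156).

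The genes that end the light response did not move as one. Sag, the arrestin that binds phosphorylated pigment, fell from 7493 and 8110 CPM to 5687 and 5690 CPM, a log2 fold change of -0.55 ± 0.08 (edgeR adjusted p = 0.00169). Grk1 (chr8:13405081-13421951, + strand), the kinase that phosphorylates the pigment, fell from 1028 and 1135 to 741 and 817 CPM (-0.57 ± 0.08, adjusted p = 0.00161). Both Diabetic libraries lay well below both Ctrl libraries for these genes. Rgs9bp, the membrane anchor of RGS9, went from 799 and 806 to 658 and 718 CPM (-0.32 ± 0.08, adjusted p = 0.0168). Its partners did not pass, with Rgs9 at 677 and 580 against 659 and 661 CPM (-0.02 ± 0.08, adjusted p = 0.874) and Gnb5 at 812 and 835 against 930 and 920.0 CPM (0.07 ± 0.07, adjusted p = 0.509).

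Rcvrn encodes recoverin, the calcium sensor that restrains the pigment kinase. It had 3828 and 3995 CPM in Ctrl and 3728 and 3459 CPM in Diabetic (-0.22 ± 0.08, edgeR adjusted p = 0.0866). Pdc encodes phosducin, which binds the beta and gamma subunits of transducin. It was the member with the highest fold change in rods, 6582 and 6711 CPM in Ctrl against 8036 and 7874 CPM in Diabetic (0.17 ± 0.08, adjusted p = 0.160), with both Diabetic libraries above both Ctrl libraries. Its adjusted p was 0.0383 with library totals, 0.0221 and 0.0224 in clusters 1 and 3 of the rods alone and 0.0371 with equal cells from each rod cluster, and its log2 fold change was -0.00 in cluster 0 alone.

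Both retinal guanylate cyclases passed the test and their activators did not. Gucy2e lay at 658 and 664 CPM in Ctrl and 527 and 547 CPM in Diabetic (-0.39 ± 0.07, edgeR adjusted p = 0.00509). Gucy2f, the second cyclase, lay at 243 and 211 against 182 and 208 CPM (-0.31 ± 0.09, adjusted p = 0.0362). The activator Guca1b was 1793 and 1919 CPM against 1930 and 1901 CPM (-0.05 ± 0.08, adjusted p = 0.702). For Guca1a, the other activator, 1 library stood apart: Ctrl 2 had 295 CPM, while Ctrl 1, Diabetic 1 and Diabetic 2 had 121, 104 and 144 CPM. Its log2 fold change of -0.84 ± 0.29 (adjusted p = 0.0700) became -0.07 without Ctrl 2 and -1.35 without Ctrl 1. It passed without Ctrl 1 or Diabetic 2 (-1.09), where the lone library of a group is assumed to vary like the other group, and with no filter on low counts (-0.85) and in cluster 3 alone (adjusted p = 0.0489). The same library stood apart in cones, at 295 CPM against 116, 100.1 and 150.5 CPM.

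Of the genes of the disc rim, only the transporter passed. Abca4 (chr3:122044443-122180123, + strand), which moves retinal adducts across the disc membrane, fell from 750 and 834 to 580 and 605 CPM (-0.51 ± 0.08, edgeR adjusted p = 0.00220). Prph2 and Rom1, the tetraspanins that shape the rim, had log2 fold changes of -0.16 ± 0.08 (adjusted p = 0.213) and -0.18 ± 0.08 (adjusted p = 0.163). Prph2 was 4767 and 5328 CPM in Ctrl against 4788 and 4872 CPM in Diabetic, and Rom1 5085 and 5282 against 5133 and 4657 CPM, so the groups overlapped for both genes.

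**Figure D3:**
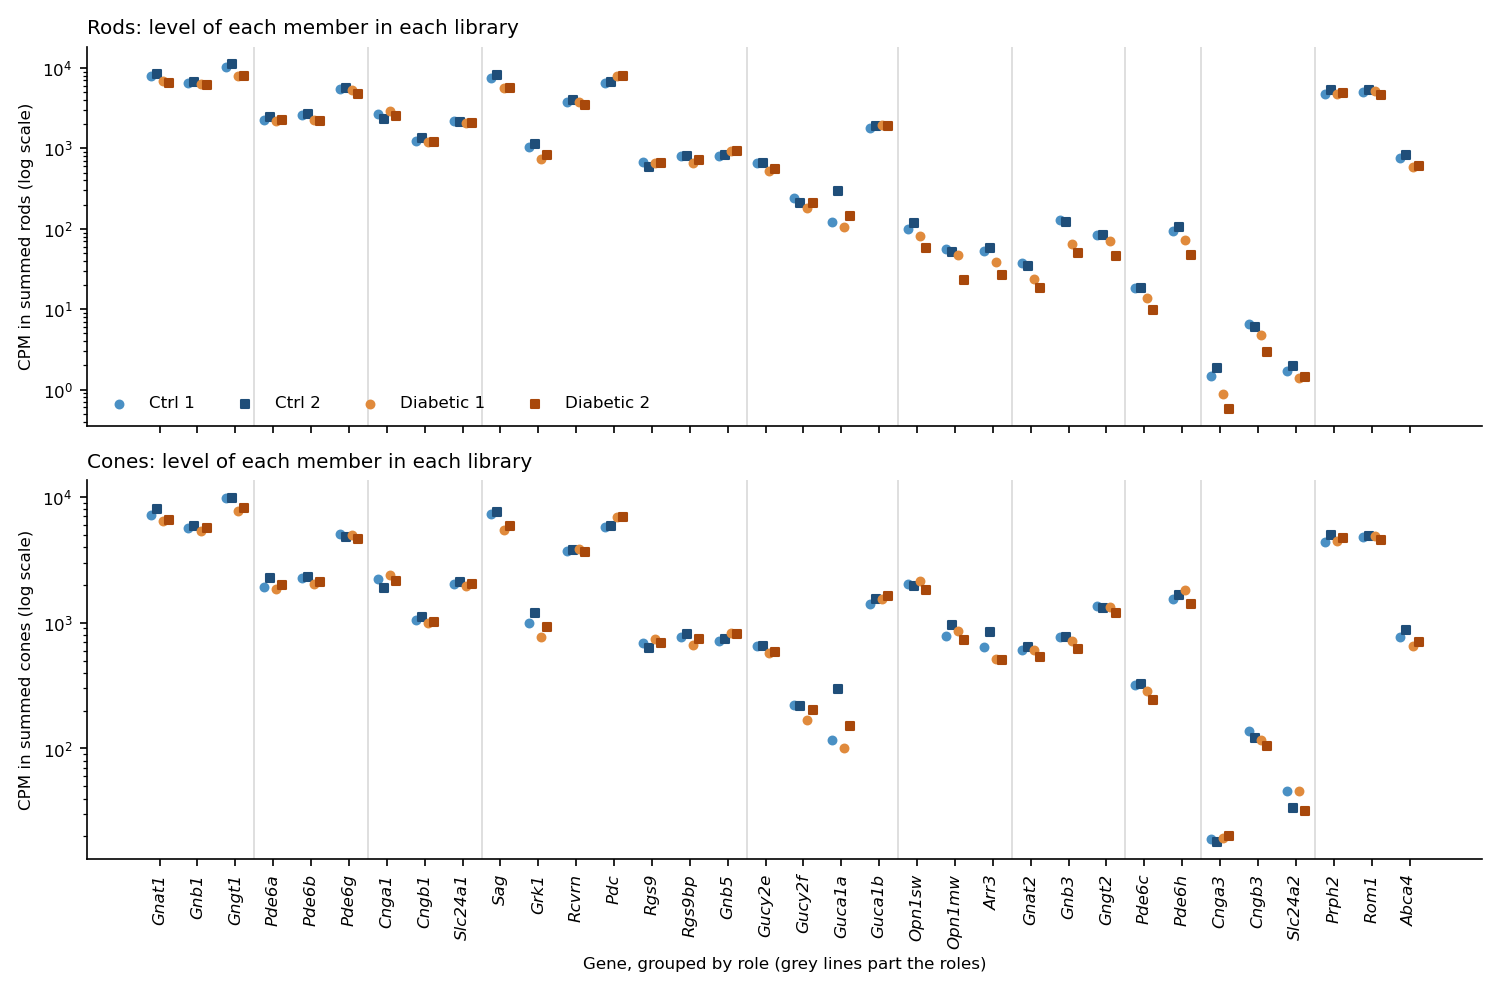
Each point is the CPM of a member in the summed rods (top) or cones (bottom) of 1 library, on a log scale, with members ordered by role. Guca1a of Ctrl 2 stands apart in both panels (295 CPM in each), and cone genes such as Gnb3 are lower in rods than in cones by a wide margin.

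Cone genes were present in rods at a low level. In Ctrl rods the median cone member had 6.22% and 6.04% of its CPM in cones of the same library, and in Diabetic rods 4.54% and 3.44%. In endothelial cells, which should mostly lack them, the medians were 2.78% and 1.67% in Ctrl and 2.75% and 2.11% in Diabetic. All 11 cone members had negative log2 fold changes in rods. Gnb3 (chr6:124834240-124840275, - strand), the cone transducin beta subunit, fell from 131 and 121 to 64.9 and 49.8 CPM (-1.22 ± 0.11, edgeR adjusted p = 8.92e-05). A Gnb3 UMI was found in 42.3% and 46.7% of Ctrl rods and 28.9% and 34.5% of Diabetic rods, and in 11.9%, 13.1%, 7.91% and 8.86% of endothelial cells in the same order of libraries. The median depth was 3192, 5959, 3844 and 6113 UMIs in rods and 3757, 5393, 3398 and 4838 in endothelial cells. With each cell thinned to 1000 UMIs the Gnb3 shares were 13.1% and 10.8% in Ctrl rods and 6.84% and 5.31% in Diabetic rods, against 2.96%, 3.31%, 1.33% and 2.20% in endothelial cells.

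Gnat2, the cone transducin alpha subunit, was 37.5 and 34.3 CPM in Ctrl rods and 24.1 and 18.4 CPM in Diabetic rods (-0.84 ± 0.12, edgeR adjusted p = 0.00157). Arr3, cone arrestin, was 53.6 and 58.3 against 38.7 and 26.3 CPM (-0.86 ± 0.14, adjusted p = 0.00267), and Opn1sw, the short-wavelength opsin, 101 and 119 against 80.5 and 57.8 CPM (-0.75 ± 0.13, adjusted p = 0.00415). For these 3 genes Diabetic 2 was the lowest library. The other 4 calls in rods were Pde6h and Pde6c, the inhibitory and catalytic cone phosphodiesterase subunits (-0.82 ± 0.15 and -0.70 ± 0.15), Gngt2, the cone transducin gamma subunit (-0.62 ± 0.14), and Cnga3, the cone channel's alpha subunit (-1.25 ± 0.38, from 8 to 28 UMIs per library). The Cnga3 call held in 6 of the 17 alternatives run for it, with log2 fold changes from -1.61 to -0.41. Opn1mw, the middle-wavelength opsin, Cngb3, the other cone channel subunit, and the cone exchanger Slc24a2 did not pass, at -0.68 ± 0.22, -0.75 ± 0.24 and -0.45 ± 0.31.

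The fall of cone genes in rods depended on which cells were called rods. When the members could take part in the clustering, Pde6h and Pde6c had log2 fold changes of 0.01 and 0.07 in rods, the median cone member -0.06, and only Gnb3 was called. Of the 4 rod clusters taken alone, cluster 1 called 8 of 11 cone members, and clusters 0, 3 and 4 called 1 of 8, 2 of 9 and 1 of 9 tested. The median cone member was at -1.002 in cluster 1, at -0.41 and -0.38 in clusters 0 and 3, where all tested cone members were below 0, and at -0.08 in cluster 4. With equal cells from each rod cluster 8 cone members were called, with a median of -0.79.

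In cones, 5 of the 34 members were lower in Diabetic and 0 higher, against 1.17% lower and 1.52% higher of 11903 genes tested (edgeR, adjusted p under 0.05). The median log2 fold change was -0.17 over the members and 0.00 over all genes. Both Diabetic libraries lay below both Ctrl libraries for 15 members (16.9% of all genes) and above for 4 (30.4%). At an unadjusted p under 0.05 in edgeR, 14 members were lower and 1, Pdc, was higher, and the share of all genes at this threshold was not counted. Limma had 14 members and 1964 of 11903 genes at an unadjusted p under 0.05. DESeq2 called 6 lower and limma 3, both with 0 higher, and leaving out Ctrl 2 or Diabetic 1 left 3 and 1. With each cell thinned to 1000 UMIs 0 were called. In cones too, the median share of mitochondrial UMIs was 4.14% and 3.24% in Ctrl and 2.02% and 2.53% in Diabetic. The 8 endothelial markers, all detected, summed to 97.7 and 83.6 against 195 and 143 CPM. The 8 Müller glia markers summed to 556 and 538 against 635 and 562 CPM. Of the 6 neutrophil markers, 2 were detected in every library, and the 6 summed to 1.88 and 2.77 against 40.4 and 19.4 CPM. The part of these measures in the changes was not tested.

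Those lower in cones were Arr3, Sag, Grk1, Gngt1 and Abca4. Arr3 (chrX:100605497-100618493, + strand) was the only cone-specific gene among them. It had 644 and 838 CPM in Ctrl cones and 515 and 505 CPM in Diabetic cones (-0.59 ± 0.10, edgeR adjusted p = 0.000855). Sag went from 7287 and 7598 to 5423 and 5835 CPM (-0.46 ± 0.09, adjusted p = 0.00300) and Grk1, which serves both cell types in mouse, from 999 and 1185 to 766 and 922 CPM (-0.43 ± 0.10, adjusted p = 0.0140). Gngt1 and Abca4 had log2 fold changes of -0.36 ± 0.09 (adjusted p = 0.0270) and -0.33 ± 0.09 (adjusted p = 0.0421). The 23 rod and shared members lay in cones at a median of 92.55% and 93.55% of their CPM in rods in Ctrl and 94.6% and 98.0% in Diabetic, so the cone class held rod RNA at nearly the level of rods.

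The cone opsins did not pass the test in cones. Opn1sw was 2017 and 1972 CPM in Ctrl cones and 2149 and 1811 CPM in Diabetic cones (-0.07 ± 0.09, edgeR adjusted p = 0.776), and Opn1mw 780.5 and 957 against 863 and 735 CPM (-0.18 ± 0.10, adjusted p = 0.385). The ratio of Opn1sw to Opn1mw UMIs was 2.58 and 2.06 in Ctrl and 2.49 and 2.46 in Diabetic. Cones with more Opn1sw than Opn1mw UMIs were 60.2% and 56.6% of cones in Ctrl and 58.6% and 67.3% in Diabetic. Both measures overlapped between the groups. Cone transducin did not pass either, with Gnat2 at 603 and 640 CPM against 608 and 534 CPM (-0.18 ± 0.09, adjusted p = 0.333), Gnb3 at 771 and 769 against 718 and 619 CPM (-0.26 ± 0.09, adjusted p = 0.126) and Gngt2 at 1355 and 1314 against 1336 and 1188 CPM (-0.14 ± 0.09, adjusted p = 0.467).

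Nor did the cone phosphodiesterase genes pass. Pde6c lay at 317 and 328 CPM in Ctrl cones and 289 and 244 CPM in Diabetic cones (-0.33 ± 0.10, edgeR adjusted p = 0.0611), and Pde6h at 1538 and 1653 against 1834 and 1415 CPM (-0.03 ± 0.10, adjusted p = 0.924). The channel genes Cnga3 and Cngb3 and the exchanger Slc24a2 had log2 fold changes of 0.03 ± 0.19, -0.28 ± 0.11 and -0.08 ± 0.16, with 52 to 507 UMIs per library.

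The other rod and shared members did not pass in cones, and over all 34 members the fitted log2 fold changes ran from -0.76 to 0.21. The transducin subunits Gnat1 and Gnb1 stood at -0.28 and -0.12, and the phosphodiesterase genes Pde6b, Pde6a and Pde6g at -0.20, -0.18 and -0.09. Cnga1, Cngb1 and Slc24a1, for the channel and the exchanger, stood at 0.09, -0.17 and -0.11. Of the shut-off and calcium-sensor genes, Rgs9bp, Rcvrn, Rgs9, Gnb5 and Pdc stood at -0.23, -0.07, 0.07, 0.10 and 0.21. The cyclases Gucy2f and Gucy2e stood at -0.30 and -0.24, their activators Guca1a and Guca1b at -0.76 and 0.04, and the rim genes Rom1 and Prph2 at -0.10 and -0.08.

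Each rod gene can be set beside the cone gene for the same subunit, with the rod gene's change in rods and the cone gene's in cones. For arrestin both were lower, -0.55 for Sag and -0.59 for Arr3. For transducin alpha the values were -0.37 (Gnat1, called) and -0.18 (Gnat2, not called), for beta -0.18 (Gnb1) and -0.26 (Gnb3), neither called, and for gamma -0.52 (Gngt1, called) and -0.14 (Gngt2, not called). The catalytic phosphodiesterase pair stood at -0.35 (Pde6b, called) and -0.33 (Pde6c, not called), and the inhibitory pair at -0.23 (Pde6g) and -0.03 (Pde6h), neither called. The channel and exchanger pairs were 0.03 (Cnga1) and 0.03 (Cnga3), -0.20 (Cngb1) and -0.28 (Cngb3), and -0.16 (Slc24a1) and -0.08 (Slc24a2), none of them called. The differences within pairs were not tested.

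Whether a gene's change differed between rods and cones was tested with an interaction term, with the library as a block. In edgeR 6 members were called, all lower in rods relative to cones, among 0.0756% of 14553 genes lower and 0.0618% higher. They were Gnb3 (difference of log2 fold changes -0.94), Pde6h (-0.77), Opn1sw (-0.66), Gnat2 (-0.64), Opn1mw (-0.50) and Gngt2 (-0.46), and leaving out 1 library at a time gave 4 to 8. That fit set the spread of each gene to a value shared by genes of like level. A gene's own spread between libraries therefore did not enter its p-value. A limma test on the 4 per-library differences called 0 members and 0 genes, with 897 genes and 1 member, Gnb3, at an unadjusted p under 0.05 (Gnb3 adjusted p = 0.792). For the 5 members called in cones the edgeR interaction had adjusted p-values of 0.273 (Arr3) to 0.865 (Sag). The interaction was not refitted with another choice of rods. With the members in the clustering, the median cone member in rods was at -0.06 in place of -0.75.

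In the other classes the members measured RNA of genes that these cells should mostly lack. In endothelial cells they gave 0.880% and 0.603% of UMIs in Ctrl and 0.753% and 0.487% in Diabetic, with overlapping groups. The 23 rod and shared members lay at a median of 10.5% and 6.92% of their level in rods in Ctrl endothelial cells and 9.57% and 6.20% in Diabetic. Of 31 members tested, edgeR called 0 in endothelial cells, as did DESeq2 and limma, while 0.794% of 12085 genes were lower and 1.13% higher. At an unadjusted p under 0.05, limma had 4 members and 1759 genes, and edgeR had 5 members lower and 1 higher. How many of all genes reached this threshold in edgeR was not counted. The log2 fold changes ran from -0.76 to 0.46 with a median of -0.31, and 27 of 31 were below 0. The median mitochondrial share was 5.77% and 5.22% in Ctrl and 2.91% and 3.76% in Diabetic endothelial cells, and its part in these values was not tested. Sag was 704 and 435 CPM in Ctrl and 488 and 327 CPM in Diabetic endothelial cells (-0.50 ± 0.21, adjusted p = 0.297), beside -0.55 ± 0.08 in rods, and Gngt1 had -0.58 ± 0.20 (adjusted p = 0.210) beside -0.52 ± 0.08. The endothelial class was made up of 2 clusters, and cluster 2 held 70.0% and 70.8% of it in Ctrl but 43.7% and 46.0% in Diabetic.

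The interaction of rods against endothelial cells called 1 member in edgeR, Gngt2 (-1.14 ± 0.18, adjusted p = 0.00295), among 0.317% of 16072 genes lower and 0.454% higher. Limma called 0, with 3 members and 1766 of 16072 genes at an unadjusted p under 0.05. In endothelial cells Gngt2 was 62.8 and 39.4 CPM in Ctrl and 80.3 and 64.6 CPM in Diabetic. In microglia it lay at 20.3% to 25.6% of its level in cones, where the median cone member lay at 0.00% to 3.60%. The median of the 23 rod and shared members in endothelial cells was -0.73 without Diabetic 1 and -0.52 without Ctrl 2. It was 0.05 without Ctrl 1 and 0.04 without Diabetic 2.

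**Figure D4:**
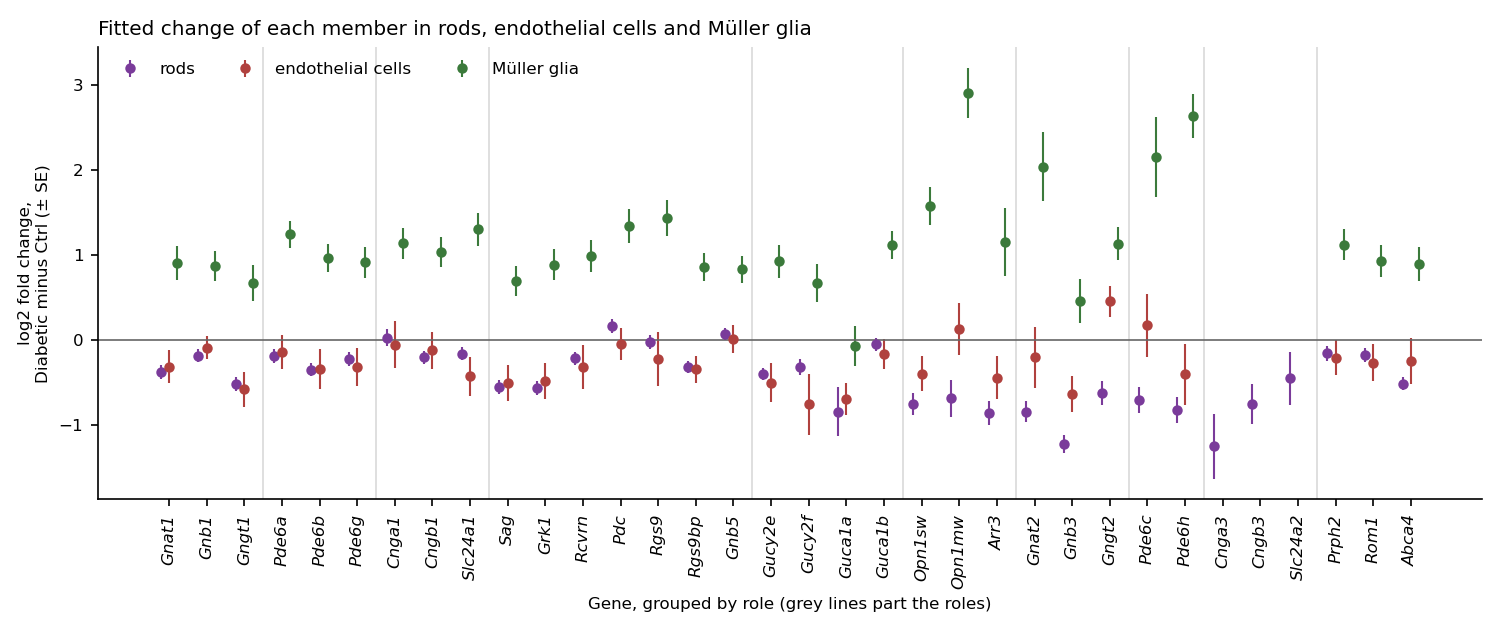
The fitted log2 fold change (Diabetic minus Ctrl, ± SE) of each member tested is drawn for rods, endothelial cells and Müller glia. Endothelial values mostly lie below 0 with wider errors than in rods, and Müller glia values lie above 0 except for Guca1a (-0.07).

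Müller glia, the radial glia that span the retina around the photoreceptors, showed the opposite direction. Member UMIs made up 1.31% and 1.03% of their UMIs in Ctrl and 2.20% and 2.60% in Diabetic. Of 31 members tested 26 were higher and 0 lower (edgeR, adjusted p under 0.05), against 3.48% higher and 1.63% lower of 10212 genes, and the median log2 fold change was 0.99. Of the 26, 20 were among the 23 rod and shared members, which all had at least 20 UMIs in each library, and 6 were cone members. Of the 11 cone members, 5 and 3 had at least 20 UMIs in Ctrl 1 and 2, and 7 and 8 in Diabetic 1 and 2. A cone member could pass the filter on low counts through the Diabetic libraries alone. In 29 members both Diabetic libraries lay above both Ctrl libraries (30% of all genes) and in 0 below (19.8%). Limma called 26 higher and DESeq2 23. The count was 0 without Diabetic 1 and 0 without Diabetic 2, and also 0 with no filter on low counts, while the median of the 23 rod and shared members was 1.05, 0.82 and 0.92 in these settings against 0.92 in the fit with all libraries and the filter.

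Both rod and cone genes were among them. Pdc lay at 1104 and 777 CPM in Ctrl and 2300 and 2691 CPM in Diabetic Müller glia (1.34 ± 0.20, edgeR adjusted p = 0.00261), and Sag at 1227 and 1035 against 1861 and 1986 CPM (0.69 ± 0.17, adjusted p = 0.0359). The largest change was in the cone opsin Opn1mw, 18.1 and 12.5 CPM in Ctrl and 95.7 and 146 CPM in Diabetic (2.90 ± 0.30, adjusted p = 0.000348), from 16, 11, 88 and 142 UMIs. Pde6h went from 40.8 and 19.3 to 176 and 216 CPM (2.63 ± 0.26, adjusted p = 0.000348). The 5 members that were tested and did not pass were Arr3, Gngt1, Gucy2f, Gnb3 and Guca1a.

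Rod markers that are not members moved with them in Müller glia. The 8 rod markers, all detected in each library, summed to 5123 and 4002 CPM in Ctrl and 8549 and 10721 CPM in Diabetic, and the 8 Müller glia markers to 33894 and 35590 against 27851 and 23727 CPM. The median mitochondrial share was 5.09% and 6.12% in Ctrl and 2.47% and 3.87% in Diabetic Müller glia. The rod and shared members lay at a median of 16.4% and 12.4% of their level in rods in Ctrl and 31.5% and 36.0% in Diabetic. From cell to cell, the 10th percentile of the member share in Müller glia was 0.504% and 0.270% in Ctrl and 0.419% and 0.274% in Diabetic, and the 90th was 2.79% and 2.30% in Ctrl and 4.10% and 4.81% in Diabetic. The class held 163 and 81 cells in Ctrl and 162 and 73 in Diabetic. Without doublet removal 17 members were higher, and with cells thinned to 1000 UMIs 5. The part of the rod RNA and of the mitochondrial share in these changes was not tested.

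**Figure D5:**
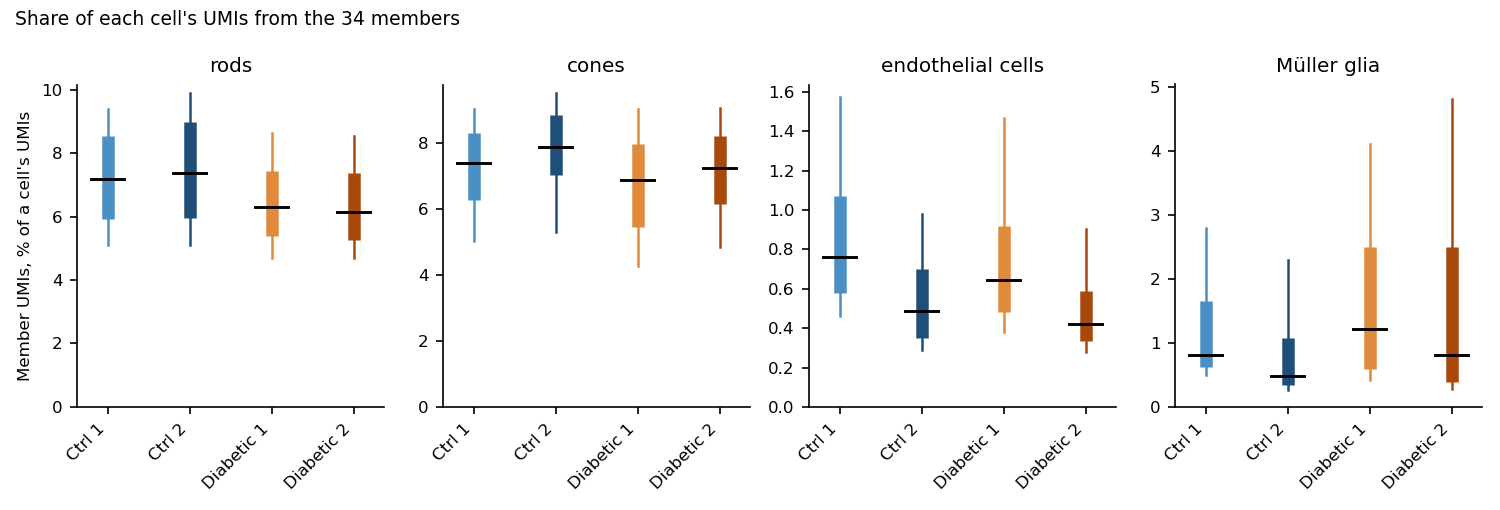
For each library a black line gives the median over cells of the percentage of a cell's UMIs that came from the members, a thick bar the middle 50% of cells and a thin line the 10th to 90th percentile; each panel has its own scale. In Müller glia the lower ends are close (0.504% and 0.270% against 0.419% and 0.274%) and the upper ends reach higher in Diabetic.

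The interaction of rods against Müller glia called 31 of 34 members, all lower in rods relative to Müller glia, among 2.98% of 15761 genes lower and 2.59% higher in edgeR. Among the 31 was Cngb3, which had 1, 2, 9 and 10 UMIs in Müller glia of Ctrl 1, Ctrl 2, Diabetic 1 and Diabetic 2, did not pass the filter there and entered the joint fit through its rod counts. Limma on the per-library differences called 0, with 21 members and 2009 of 15761 genes at an unadjusted p under 0.05. Bipolar cells carried 5.06% and 4.02% member UMIs in Ctrl and 4.88% and 4.39% in Diabetic. In them 0 of 33 members were called, where 0% of 11415 genes were lower and 0.0175% higher. At an unadjusted p under 0.05, 2 members were lower, and how many of all genes reached that threshold in bipolar cells was not counted. Gnb3, which ON bipolar cells also use, lay there at 61.3% and 86.7% of its level in cones in Ctrl and 63.3% and 76.2% in Diabetic. The interaction of rods against bipolar cells called Gnat2, Gnb3, Pde6h and Opn1sw, all lower in rods relative to bipolar cells, where 0.0437% of 16013 genes were lower and 0.618% higher in edgeR, and limma called 0.

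In microglia or macrophages the members gave 1.30% and 1.08% of UMIs in Ctrl and 0.851% and 0.508% in Diabetic, and 20 of 21 tested had a log2 fold change below 0. None was called by edgeR (0.283% of 2830 genes were lower and 0.318% higher), and 10 were lower at an unadjusted p under 0.05, from 27 to 66 cells per library. How many of all genes reached the unadjusted threshold was not counted, here or in pericytes or smooth muscle cells. In pericytes or smooth muscle cells the shares were 1.54% and 1.18% against 1.72% and 0.939%, with 0 of 27 members called (0% of 5125 genes lower and 0.0195% higher) and 1 lower at an unadjusted p under 0.05.

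Genes that work beside phototransduction were counted in 5 lists in rods, where 6.92% of all genes were lower and 8.5% higher with a median log2 fold change of 0.00; a list's count near these shares is no result about the list. Of 13 tested genes of the visual cycle, which regenerates the chromophore, 4 were lower and 0 higher (median -0.14). Rdh11, a retinol dehydrogenase, went from 68.7 and 68.0 to 46.7 and 50.3 CPM (-0.59 ± 0.07, edgeR adjusted p = 0.000632), Rbp3, which carries retinoids between cells, had -0.37 ± 0.09 and the retinaldehyde reductase Dhrs3 -0.35 ± 0.07. Of 15 photoreceptor transcription factors 2 were higher and 2 lower (median -0.12). Prdm1, which holds back bipolar fate, rose from 29.7 and 29.3 to 42.5 and 46.3 CPM (0.49 ± 0.08, adjusted p = 0.00380), Rorb rose from 738 and 711 to 971 and 1015 CPM (0.36 ± 0.07, adjusted p = 0.00805), and Samd11 fell (-0.45 ± 0.08, adjusted p = 0.00372).

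Of 16 genes of transport, cyclase regulation and membrane current 4 were lower and 0 higher (median -0.15). Kcnv2, a potassium channel subunit of the inner segment, fell from 446 and 467 to 311 and 344 CPM (-0.57 ± 0.08, edgeR adjusted p = 0.00107). Rd3, which inhibits the guanylate cyclases, fell from 227 and 241 to 184 and 173 CPM (-0.49 ± 0.08, adjusted p = 0.00225), and the sodium pump subunit Atp1b2 had -0.41 ± 0.07 (adjusted p = 0.00472). Of 24 genes of the outer segment and cilium 4 were lower and 2 higher (median -0.14). Those lower included Rp1l1, a protein of the axoneme, from 475 and 513 to 378 and 408 CPM (-0.42 ± 0.08, adjusted p = 0.00534), and Cdhr1, a cadherin of the outer segment base, from 637 and 682 to 529 and 527 CPM (-0.41 ± 0.07, adjusted p = 0.00472).

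Of 16 synaptic genes 6 were lower and 2 higher (median -0.17). Cplx3, a complexin of ribbon synapses, rose from 14.2 and 13.8 to 26.2 and 24.8 CPM (0.77 ± 0.11, edgeR adjusted p = 0.00128). Lrit1 and Cacna1f, the calcium channel of the rod terminal, fell by 0.57 and 0.51 on the log2 scale (adjusted p = 0.00367 and 0.00311). In cones, where 1.17% of all genes were lower and 1.52% higher, 10, 15, 16, 24 and 16 genes of these lists were tested in the same order. Rorb was higher, and 6 genes were lower (Rd3, Kcnv2, Cacna1f, Unc13b and Lrit1 among them), named after their values were seen.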

How the data were processed

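Each of the 4 libraries was a deposited matrix of raw UMI counts per gene and called cell, made by the authors with Cell Ranger 7.0.0; STAR 2.7.10b and the build mm10 are also named, per the submitters' processing notes. The deposited counts were whole numbers and not normalized. The filters on cells were a minimum of 500 UMIs and of 300 genes and a maximum of 20% mitochondrial UMIs, and the top-scoring 0.8% per 1000 barcodes by Scrublet (scanpy 1.11.5) were removed as doublets in every library (2.46% to 6.39%). Cells were clustered together from 2000 variable genes without the 34 members, 30 components, 20 neighbours and Leiden resolution 1 (leidenalg 0.10.2), giving 24 clusters of 18741 cells.

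A cluster took a class name at a marker score of at least 0.5. It stayed unnamed where another class reached 0.3 or where lens or blood genes were among its top 10 genes. It also stayed unnamed where those 10 genes held markers of another class, at least as many as of its own. The 0.3 limit was not applied to ganglion cell markers, to rod markers in the cone class, or to rod and cone markers in other classes. These limits were chosen after a look at the clusters. UMIs were summed per class and library and tested with edgeR 4.0.16 in R 4.3.3 (TMM, filterByExpr, quasi-likelihood F test, two-sided, Benjamini-Hochberg over all genes tested). The edgeR and limma fits of rods and the edgeR interaction of rods against cones were also run on simulated counts. The simulation gave every gene the same spread and did not cover DESeq2 or the fits of other classes. It therefore does not measure the error of the fits in these libraries. DESeq2 1.42.0, limma 3.58.1 on log2 CPM (prior count 2), thinning and other cell choices were alternatives.

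The members and the gene lists were chosen with earlier results of these data known. The rule was to name every member with at least 20 UMIs in a class with its values; this was done in rods and cones, and in the other classes members are given by counts, ranges and a few examples. Of each companion list, up to 3 called genes with the largest change in rods were named, except 1 that is not reported here. SDs are between the libraries of a group, and SEs come from the edgeR test, which uses the spread between libraries. Whether they cover the spread between animals is not known from the labels. Promoter sequences are from RefSeq and gene positions from the GENCODE annotation of the same build. Cells of the unnamed clusters and classes under 20 cells in a library were left out of the class tests.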

Additional observations from a re-analysis of the deposited data

Results flagged for a closer look

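The change between Diabetic and Ctrl differed between cell classes by an edgeR interaction test for several members. Between rods and cones, the difference of log2 fold changes (rods minus cones) was -0.94 for Gnb3, -0.77 for Pde6h, -0.66 for Opn1sw, -0.64 for Gnat2, -0.50 for Opn1mw and -0.46 for Gngt2. Between rods and bipolar cells it was -1.25 for Opn1sw, -1.14 for Pde6h, -1.04 for Gnat2 and -0.86 for Gnb3. Between rods and endothelial cells it was -1.14 for Gngt2. Between rods and Müller glia, 31 of the 34 members differed, all of them lower in rods relative to Müller glia; they include Cngb3, which did not pass the filter on low counts in Müller glia and entered this fit through its rod counts. None of these differences passed in limma on the per-library differences, whose adjusted p for Gnb3 between rods and cones was 0.792. The interactions were not refitted with another choice of rods. The fall of the median cone member in rods (-0.75) was -0.06 when the members took part in the clustering. Groups of 2 libraries are too small to test for a sample that lies apart.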

How the results depend on the processing

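Among the refitted fold changes of single members, 1889 stayed on their side of the threshold (among them uncalled ones that changed sign, such as Guca1a in cones at 0.0387 without Ctrl 2 against -0.76), 193 lost the call, 109 gained one and 5 called ones changed sign: Pde6h and Pde6c in rods with the members in the clustering (0.0144 and 0.0651) and Opn1sw, Gngt2 and Pde6c in rod cluster 4 alone (0.12, 0.0968 and 0.0428). Sag, Gngt1 and Gnb3 were called in rods under all 21 alternatives run for them. Alternatives by cluster, thinning, equal cells, library totals, limma and pooled clusters were chosen after seeing the data, as were those for the counts of members called in Müller glia and endothelial cells. With 1 library left out, the lone library of its group is assumed to vary like the other group. Where no cause is given, the cause was not tested.

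In rods, genes higher and lower (1292 and 1052) numbered 523 and 576 with DESeq2, 72 and 66 after thinning, 2080 and 486 with library totals, and 35 and 50, 712 and 567, 544 and 409, and 415 and 289 in clusters 0, 1, 3 and 4 alone. Leaving out 1 library gave 358 to 1027 and 251 to 1001, the fewest without Diabetic 1. Of members in rods, 1 was higher in clusters 1 and 3, with equal cells and with library totals, and 10 were lower with members in the clustering, 11 with all rod-led clusters, 6, 11 and 8 in clusters 0, 3 and 4, and 7 after thinning. Leaving out 1 library gave 15 to 18.

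In cones, genes higher and lower (181 and 139) numbered 16 and 50 with DESeq2, 107 and 86 without doublet removal, 0 and 2 after thinning, and 80 lower with library totals. Leaving out 1 library gave 54 to 188 and 33 to 174. With no filter on low counts 1 member was higher and 8 lower in cones, 3 were lower without doublet removal, with library totals and with limma, and 0 after thinning. Leaving out 1 library gave 1 to 7.

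In Müller glia 0 members were higher with no filter, 17 without doublet removal and 5 after thinning, and leaving out 1 library gave 0 to 30. In endothelial cells 1 was higher and 6 lower with no filter, 1 and 1 with members in the clustering, and leaving out 1 library gave 0 to 1 higher and 0 to 19 lower. For rods against cones limma gave 0 genes higher, 0 lower and 0 members lower, and leaving out 1 library 3 to 7 genes higher, 7 to 14 lower and 4 to 8 members lower.

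The difference in member share (percentage points) was -1.24 and -0.35 in rod clusters 0 and 3 alone and 0.73 in thinned Müller glia. In endothelial cells it changed sign without Ctrl 1 (0.0168) and without Diabetic 2 (0.0118), with a range of -0.259 to 0.0168 over the libraries left out. Thinning and single clusters hold fewer UMIs.

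The labels number the libraries 1 and 2 in each group without saying what a number shares. The replicate differences of the 2 groups correlated at 0.268 over genes in rods, 0.126 in cones, 0.186 in Müller glia and 0.180 in endothelial cells, and 2 pairs are too few to tell pairs from chance. With a replicate block, genes higher and lower were 2442 and 2256 in rods and 468 and 442 in cones, members lower were 13 in cones, and in endothelial cells 1 member was higher and 14 lower. Guca1a in rods, not called without the block, had -0.73 with it (edgeR adjusted p = 1.84e-21).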
